A study of Homo sapiens with 4 samples.

Results

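The genes described here were lower in both libraries of K562 cells transfected with RUNX1::ERG than in both empty vector libraries. They were selected on these measured values. A gene had to reach 2 CPM (its count scaled to a library total of 1000000) in each empty vector library. The lower of its empty vector values had to be at least 1.7 times the higher of its RUNX1::ERG values, and empty vector replicate 1 had to stay under 2 times replicate 2. Of the 25702 genes counted, 11097 reached the CPM minimum and 76 met every criterion. MYC, PVT1 and IGFBP4 were among the latter and were left out by name, which left 73 genes. MYB was also to be left out by name, but it did not meet the rule. It was lower with RUNX1::ERG, at 97.7 and 124 CPM, than with the empty vector, at 207 and 195 CPM, but short of the fold of 1.7. Because the contrast between the groups chose these genes, the differences given below are a description of them.

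K562 is an established human line derived from chronic myeloid leukemia. The cells received, by transient transfection, either the LeGO-iG2 plasmid that expresses RUNX1::ERG or the same plasmid without an insert, and had no other treatment. Poly(A)-enriched RNA was sequenced from 2 replicates per group. Whether transfected cells were sorted before RNA extraction is not given in the sources used here.

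RUNX1 is a transcription factor that binds DNA through its Runt domain and is needed for definitive blood formation, and ERG is an Ets family transcription factor of blood stem cells, megakaryocytes and endothelium. The fusion carries parts of both. K562 cells express embryonic and fetal globins and can be driven towards erythroid or megakaryocytic differentiation in culture, and they also make intermediate filament proteins of other tissues, so their transcriptome mixes blood and non-blood genes.

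Library totals ran from 59695387 to 82352144 counts, so that 3 counts, the limit a count of 0 allows, was worth 0.0364 to 0.0503 CPM. That limit covers counting error only, and it holds for independent reads, whereas 66.7% to 68.9% of the counts from 1 to 10 were even numbers. ERG was counted 4 times in either control library, 80443 times (977 CPM) in RUNX1::ERG replicate 1 and 27218 times (380 CPM) in replicate 2, so the RUNX1::ERG libraries differed in the transcript of the transfected fusion itself. All 7 markers chosen for K562, among them GATA1, TAL1, HBG1, HBG2, TFRC and LMO2, reached at least 104 CPM in every library. The replicates are described as biological, but what was separate between them is not stated, so p-values measure the spread between these libraries, which may be partly technical, and with 2 against 2 the smallest p of an exact two-sided permutation test is 0.333.

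Among the genes that reached the CPM minimum, a fold of 1.7 with no overlap of the groups was uncommon. It was met by 80, or 0.721%, while 2423 genes (21.8%) were lower in both RUNX1::ERG libraries than in either control and 2864 (25.8%) were higher. The same rule turned round, for genes raised by the fusion, was met by 341 genes. All 73 lowered genes entered the edgeR quasi-likelihood test, and 63 of them were called lower at a Benjamini-Hochberg adjusted p under 0.05. The background was 1.15% of the 15394 genes tested called lower and 3.64% called higher. Since the rule used that contrast, nothing is read from this count. It fell to 29 when RUNX1::ERG replicate 1 was left out. The 10 that were not called had a median of 3.72 CPM in the empty vector libraries, and their highest mean was 11.7 CPM. The median log2 fold change of the 73 was -1.23, against 0.00 over all genes tested. In RNA from bulk cells, fewer cells of a type and less RNA per cell cannot be told apart.

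**Figure D1:**
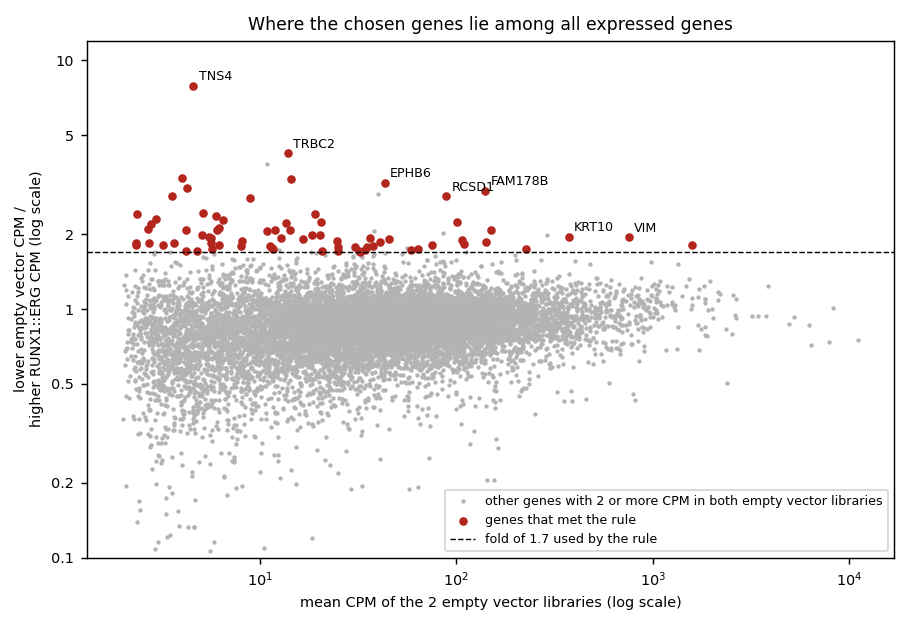
Ratio of the lower empty vector CPM to the higher RUNX1::ERG CPM (log scale) against the mean empty vector CPM (log scale) for genes with at least 2 CPM in both empty vector libraries. The lowered genes (red) lie above the dashed line at 1.7 because the rule placed them there, and they reach from TNS4 at a ratio of 7.90 down to the line. Genes with no RUNX1::ERG counts or outside the axis range are not drawn.

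Most of the decreases were moderate. The ratio that the rule used ran from 1.701 to 7.90 with a median of 1.92, and it reached 2 in 28 genes and 3 in 6. The genes just inside the limit were LARGE2 at 1.707, KRT10-AS1 at 1.706, NCBI gene 100505730 at 1.704 and ALKBH2 at 1.701. Just outside it were WNT10B at 1.699, EDARADD at 1.699, SNORA18 at 1.698 and CDCA7 at 1.696. A further 4 genes, S100P, STC2, TNFRSF10B and LINC00861, met the fold but were kept out because empty vector replicate 1 was at least 2 times replicate 2. S100P, for example, had 16.4 and 5.35 CPM with the empty vector and 1.40 and 0.824 CPM with RUNX1::ERG.

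The lowered genes were expressed at lower levels than other genes that reached the CPM minimum. Their median empty vector level was 13.6 CPM against 37.9 CPM, and 30 of them (41.1%, against 18.1% of the others) were below 10 CPM. A further 33 lay between 10 and 100 CPM, and 10 lay at 100 CPM or above. The rule used the empty vector values, so this difference in level is a description and not an independent result. RefSeq lists 63 of the 73 as protein coding (86.3%, against 93.0% of the others) and 6 as long noncoding RNAs (8.22%, against 2.90%). The remaining ones were TRBC2, which is a constant region segment, and 3 gene numbers that matched no symbol. The median total exon length of the 70 genes placed on the genome was 4099 bases, and that of the others was 5405 bases.

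Promoter sequence was not used by the rule. RefSeq promoters (GRCh38.p14, 250 bases before to 50 after a start) were at hand for 50 of the 73 genes, with 65 windows of 300 bases since some genes have several starts. The letters were searched on both strands, and none of the 5 motifs contains another. For Runt proteins they were TGTGGT. For proteins of the Ets family they were CCGGAAGT. The E-box, which MYC binds together with MAX, was searched as CACGTG. Erythroid proteins of the GATA family were represented by AGATAA. The composite element of the stress factor ATF4 was searched as ATTGCATCA. The Runt letters were in 9 of the 65 windows, 13.8% (95% Clopper-Pearson interval 6.53% to 24.7%), against 9.57% of 12682 windows of other genes at the CPM minimum and 13.1% of all 35116 windows. The Ets letters were in 3, 4.62% (0.962% to 12.9%), against 8.38% and 4.14%. The E-box was in 10, 15.4% (7.63% to 26.5%), against 9.74% and 7.26%.

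The GATA letters were in 9 windows of 8 genes, 13.8% (6.53% to 24.7%), against 5.50% of the windows of other expressed genes and 10.3% of all. The ATF4 letters were in none of the 65, which allows up to 5.52%, against 0.142% and 0.236%. The interval lay above the share of other expressed genes for GATA and took it in for the other 4 motifs. Against all windows, it took in the share for GATA, 10.3%, and lay above that for the E-box, 7.26%. Windows of a gene can overlap and share a match, so these intervals are too narrow, and letters are no evidence of binding. The windows of the lowered genes had a median of 64.3% G and C and 22 CG pairs, against 65% and 26 for other expressed genes.

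**Figure D2:**
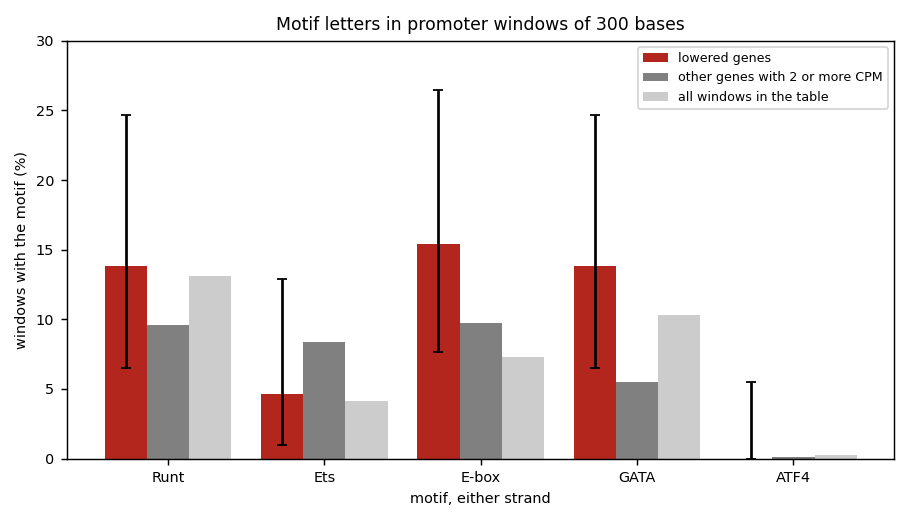
Percent of promoter windows that hold each motif on either strand, for the lowered genes (red, bars are 95% Clopper-Pearson intervals), other genes at the CPM minimum (dark grey) and all windows (light grey). The interval of the lowered genes excludes the value of other expressed genes for GATA, 13.8% against 5.50%, and includes it for Runt, Ets, E-box and ATF4. It includes the value of all windows for GATA, 10.3%, and excludes it for the E-box, 15.4% against 7.26%.

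The windows of some abundant lowered genes are shown so that the matches can be read in place. Each line holds the 250 bases before a RefSeq start on the gene's own strand, 5′ to 3′, with the matched letters in capitals. EPHB6, VIM and S100A11 hold the Runt letters, KRT10 the GATA letters, and PKLR the E-box followed by the GATA letters. The first capital lies 89 bases before the start in EPHB6 (chr7:142862506-142862755, plus strand), 96 in VIM (chr10:17227991-17228240, plus strand), 117 in S100A11 (chr1:152037005-152037254, minus strand) and 128 in KRT10 (chr17:40822615-40822864, minus strand). In PKLR (chr1:155301439-155301688, minus strand) the E-box begins 197 and the GATA letters 31 bases before the start.
EPHB6: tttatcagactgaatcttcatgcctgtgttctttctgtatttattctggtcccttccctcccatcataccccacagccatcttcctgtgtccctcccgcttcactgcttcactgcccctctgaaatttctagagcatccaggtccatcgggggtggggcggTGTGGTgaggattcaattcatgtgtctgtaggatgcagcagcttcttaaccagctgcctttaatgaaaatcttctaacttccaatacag
VIM: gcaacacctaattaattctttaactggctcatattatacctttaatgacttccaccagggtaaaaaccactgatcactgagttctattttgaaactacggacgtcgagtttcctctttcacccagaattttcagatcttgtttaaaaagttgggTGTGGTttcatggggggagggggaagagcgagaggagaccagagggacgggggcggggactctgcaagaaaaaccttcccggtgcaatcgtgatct
S100A11: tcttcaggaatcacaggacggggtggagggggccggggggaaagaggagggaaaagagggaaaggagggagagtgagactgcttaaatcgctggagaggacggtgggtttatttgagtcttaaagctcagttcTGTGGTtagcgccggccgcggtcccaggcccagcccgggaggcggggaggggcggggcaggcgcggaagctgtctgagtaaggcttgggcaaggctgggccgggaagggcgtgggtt
KRT10: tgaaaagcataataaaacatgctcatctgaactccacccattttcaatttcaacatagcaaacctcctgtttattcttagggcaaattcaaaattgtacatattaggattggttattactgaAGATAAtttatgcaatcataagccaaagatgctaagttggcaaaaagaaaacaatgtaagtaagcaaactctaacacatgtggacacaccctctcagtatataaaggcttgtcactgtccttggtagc
PKLR: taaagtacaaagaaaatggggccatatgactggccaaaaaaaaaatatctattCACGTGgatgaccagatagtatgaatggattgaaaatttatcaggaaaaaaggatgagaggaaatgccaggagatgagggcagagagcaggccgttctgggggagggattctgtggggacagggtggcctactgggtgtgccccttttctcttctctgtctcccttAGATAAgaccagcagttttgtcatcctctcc
These 5 genes differed widely in the size of the decrease, from a ratio of 3.22 for EPHB6 to 1.74 for PKLR. A second RefSeq start of PKLR, within the gene, had none of the 5 motifs in its window.

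**Figure D3:**
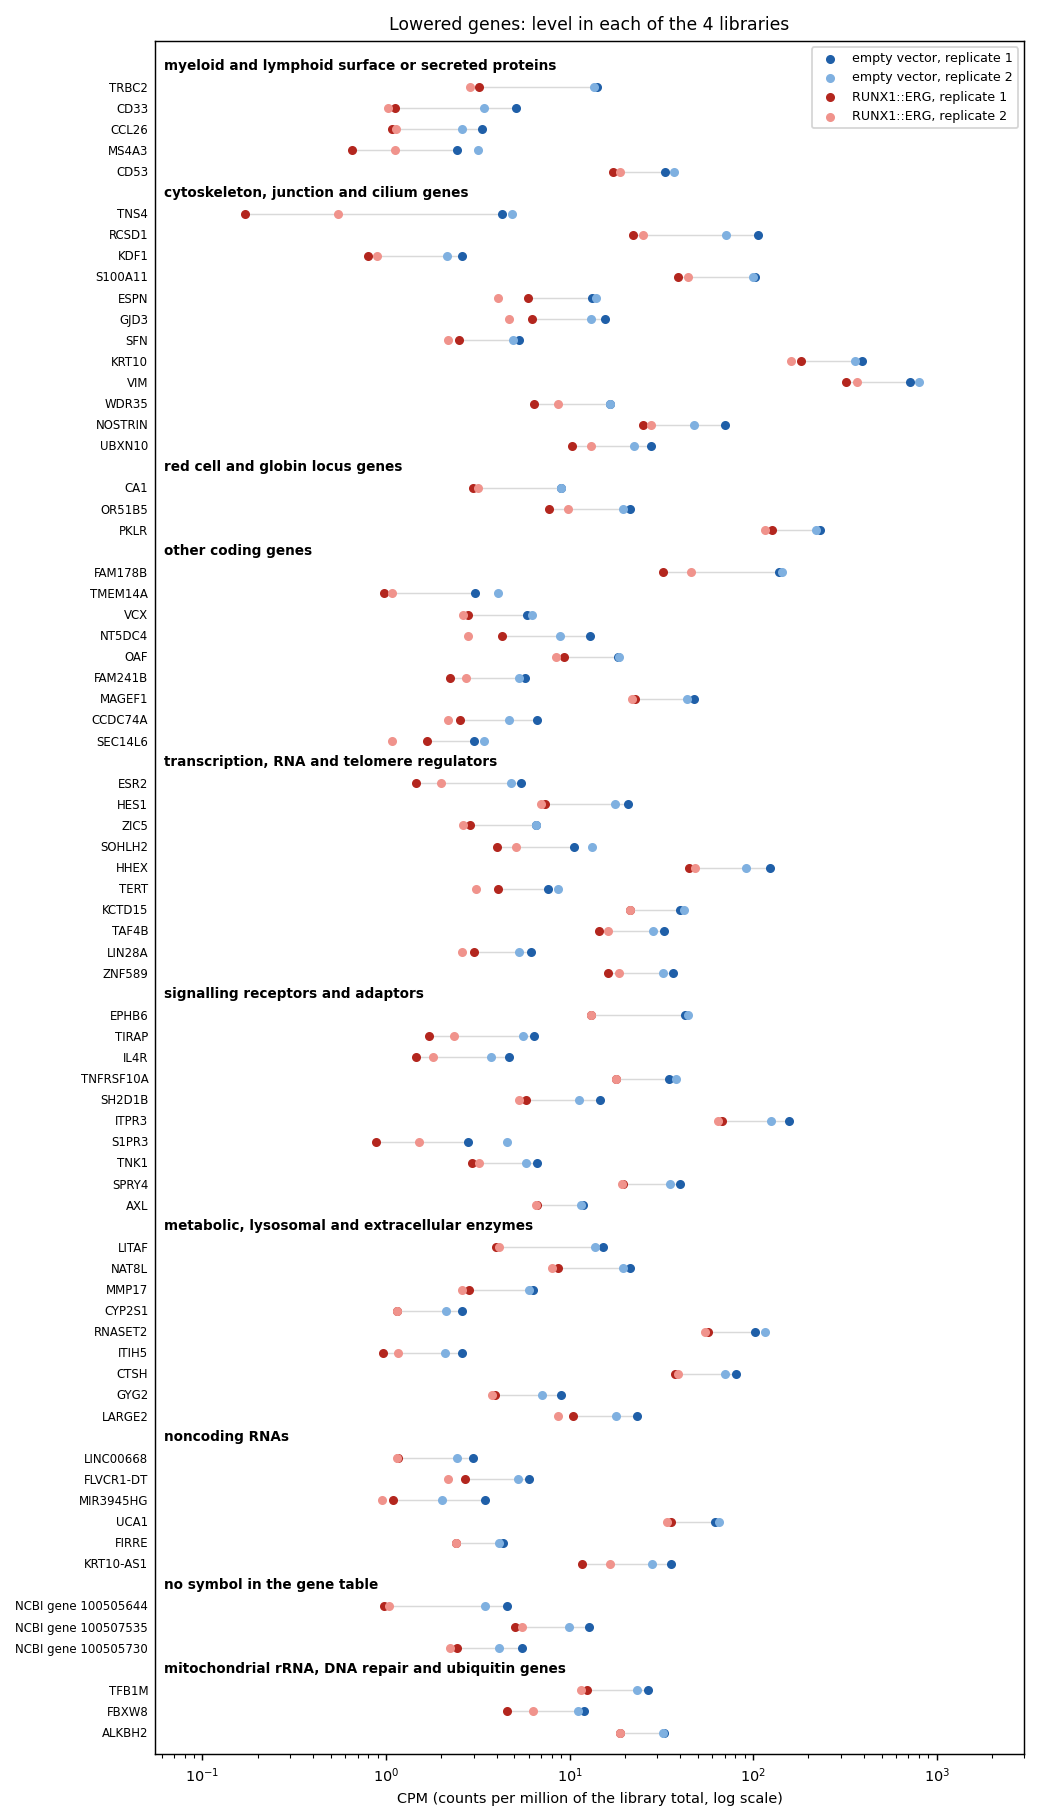
CPM (log scale) of 70 of the 73 lowered genes in each of the 4 libraries, 1 row a gene, grouped by what the gene is known for. In every row both red points (RUNX1::ERG) lie left of both blue points (empty vector), which the rule requires, and the distance is widest for TNS4.

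The group set for the cytoskeleton, cell junctions and cilia held 12 genes, though not all of them are structural proteins. Groups were assigned after the genes were seen, with no share of all expressed genes beside them, so their sizes are no result. All 12 genes were called lower, against 1.15% of all genes tested. The rule used that contrast, so nothing is read from the calls here or in the groups that follow. The ratios of these 12 ran from 1.72 to 7.90. Genes outside the naming rule were picked for their role after their values were seen, here and in the paragraphs that follow.

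TNS4, which encodes a protein of the tensin family, had the widest gap of all 73. It had 257 and 357 counts in the empty vector libraries and 14 and 39 counts in the RUNX1::ERG libraries, or 4.31, 4.88, 0.170 and 0.545 CPM. The log2 fold change was -3.73 ± 0.50 (SE, n = 2 per group). The RUNX1::ERG libraries were far below both controls and also differed from each other.

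VIM and KRT10 encode intermediate filament proteins, vimentin of mesenchymal and blood cells and keratin 10 of the epidermis. VIM was at 712 and 797 CPM with the empty vector and at 319 and 367 CPM with RUNX1::ERG, a log2 fold change of -1.18 ± 0.15 (SE, n = 2 per group). KRT10 was at 389 and 357 CPM and then at 183 and 160 CPM, a log2 fold change of -1.16 ± 0.15. Both were among the most abundant lowered transcripts, and in each case the replicates lay close together and the groups far apart.

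The summed level of 3 markers of fibroblasts (COL1A1, COL1A2 and DCN) was 6.21 and 5.997 CPM in the empty vector libraries and 25.2 and 22.1 CPM with RUNX1::ERG, and COL1A1 carried the difference, with 4.17 and 3.48 CPM and then 22.6 and 19.6 CPM. COL1A2 overlapped between the groups, from 1.98 to 2.57 CPM over the 4 libraries, and DCN stayed at or below 0.112 CPM. The sum of 3 epithelial markers (EPCAM, KRT8 and KRT19) was 734 and 914 CPM with the empty vector and 836 and 890 CPM with RUNX1::ERG, with overlapping groups. Most of that sum was KRT8, which also overlapped. EPCAM, at 76.0 and 78.2 CPM and then 56.8 and 58.5 CPM, was lower in both RUNX1::ERG libraries. KRT19, at 163 and 190 CPM and then 157 and 150 CPM, was also lower in both, but the groups nearly touched. Of all genes at the CPM minimum, 21.8% were lower in both RUNX1::ERG libraries. No epithelial marker was at 0. The part of either marker list in the values of VIM and KRT10 was not tested.

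RCSD1, which encodes a protein that binds the actin capping protein CapZ, was at 106 and 71.4 CPM with the empty vector and at 22.1 and 25.2 CPM with RUNX1::ERG. S100A11, a calcium-binding S100 protein, was at 103 and 99.2 CPM and then at 39.1 and 44.2 CPM. ESPN, the actin-bundling protein espin, was at 13.3 and 13.9 CPM and then at 5.95 and 4.05 CPM. In all 3 the RUNX1::ERG libraries kept at most 43.8% of the mean control level.

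NOSTRIN, which binds endothelial nitric oxide synthase and takes part in its internalization, was at 70.2 and 47.6 CPM with the empty vector and at 25.1 and 27.6 CPM with RUNX1::ERG. GJD3, a connexin of gap junctions, was at 15.6 and 13.1 CPM and then at 6.25 and 4.67 CPM. SFN, the epithelial 14-3-3 protein stratifin, KDF1, a regulator of keratinocyte differentiation, and the ciliary genes WDR35 and UBXN10 completed the group.

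Signalling receptors and adaptors numbered 11, of which 9 were called lower, with ratios from 1.74 to 3.22. EPHB6, an ephrin receptor whose kinase domain is inactive and whose promoter window holds the Runt letters printed with the motifs, had the highest ratio of them. It was at 42.4 and 44.2 CPM in the empty vector libraries and at 13.1 CPM in each RUNX1::ERG library, a log2 fold change of -1.76 ± 0.18 (SE, n = 2 per group). ITPR3, the type 3 receptor for inositol trisphosphate that releases calcium from the endoplasmic reticulum, was at 157 and 125 CPM and then at 67.6 and 64.6 CPM. SPRY4, a feedback inhibitor of receptor tyrosine kinase signalling, was at 40.0 and 35.3 CPM and then at 19.6 and 19.3 CPM. For these genes the RUNX1::ERG libraries differed little from each other, while the controls differed more.

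Receptors of immune and death signals were in the same group. IL4R, the receptor chain for interleukin 4, was at 4.67 and 3.73 CPM with the empty vector and at 1.46 and 1.80 CPM with RUNX1::ERG. TNFRSF10A, a death receptor for TRAIL, was at 34.6 and 37.9 CPM and then at 17.9 CPM in both libraries. TIRAP, an adaptor of Toll-like receptors, SH2D1B, a SLAM receptor adaptor, and S1PR3, a receptor for sphingosine 1-phosphate, were also called. AXL, a receptor tyrosine kinase, was at 11.8 and 11.6 CPM and then at 6.65 and 6.54 CPM, and TNK1, a cytoplasmic tyrosine kinase, at 6.67 and 5.79 CPM and then at 2.95 and 3.21 CPM. AXL and TNK1 were not called.

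Regulators of transcription, RNA and telomeres made up 10 genes, of which 9 were called. Among them HES1, the repressor downstream of Notch, was at 20.7 and 17.7 CPM with the empty vector and at 7.37 and 7.01 CPM with RUNX1::ERG (log2 fold change -1.46 ± 0.21, SE, n = 2 per group). HHEX, a homeobox factor of early blood and endothelial cells, was at 123 and 91.2 CPM and then at 44.9 and 48.0 CPM. SOHLH2, a basic helix-loop-helix factor of germ cells, was at 10.5 and 13.3 CPM and then at 4.04 and 5.09 CPM. TERT, the catalytic subunit of telomerase, was at 7.64 and 8.62 CPM and then at 4.06 and 3.09 CPM. The controls of HHEX were less alike than its RUNX1::ERG libraries, and the reverse held for TERT. The call of TERT was lost without either RUNX1::ERG library (edgeR adjusted p = 0.0744 without replicate 1 and 0.0998 without replicate 2), and that of SOHLH2 without replicate 1.

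HES1 and HHEX were the only genes that edgeR called lower among the 43 measured hematopoietic transcription factors of a list set for this work. It called 7 of that list higher, among them TAL1, ID1, ETV6, MEIS1, RUNX1 and ERG. The alternative test, DESeq2, called 3 lower and 10 higher. The counts of RUNX1 and ERG include reads from the transfected fusion. The median log2 fold change of that list was 0.07. Over all genes tested, edgeR called 1.15% lower and 3.64% higher. HES1 and HHEX were chosen on this contrast, so their calls are no finding. The other lowered regulators were ESR2, the estrogen receptor beta, ZIC5, a zinc finger factor, KCTD15, a repressor of AP-2 activity, TAF4B, a TFIID subunit, ZNF589, a KRAB zinc finger protein, and LIN28A, which blocks let-7 processing and was not called.

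Surface or secreted proteins of myeloid and lymphoid cells were 5 genes, all called, with ratios from 1.77 to 4.24. TRBC2, a constant segment of the T cell receptor beta chain, was at 14.2 and 13.6 CPM with the empty vector and at 3.21 and 2.86 CPM with RUNX1::ERG, a log2 fold change of -2.23 ± 0.24 (SE, n = 2 per group). TRBC1 is a near-identical copy of this segment, so the assignment of its reads is uncertain. Of 3 T cell markers, CD3D was at 32.8 and 33.4 CPM and then at 21.0 and 23.7 CPM, CD3E stayed at or below 0.486 CPM and CD2 at or below 0.0670 CPM, with 0 counts in empty vector replicate 2. Their sum was 33.2 and 33.6 CPM with the empty vector and 21.5 and 24.0 CPM with RUNX1::ERG, almost all of it CD3D, and its part in the TRBC2 values was not tested.

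CD33, a sialic acid-binding lectin and a common marker of myeloid leukemia, was at 5.09 and 3.42 CPM with the empty vector and at 1.12 and 1.02 CPM with RUNX1::ERG. CD53, a tetraspanin of leukocytes, was at 33.2 and 36.9 CPM and then at 17.2 and 18.8 CPM. MS4A3, of granulocyte-monocyte progenitors, was at 2.45 and 3.16 CPM and then at 0.656 and 1.12 CPM. The chemokine CCL26 was at 3.35 and 2.61 CPM and then at 1.08 and 1.13 CPM. The sum of the monocyte markers CD14, CSF1R and LYZ went the other way, from 7.27 and 9.99 CPM to 22.7 and 20.8 CPM, with no marker at 0. Its part in these values was not tested. Of the 15 measured genes of a list of myeloid granule and surface proteins, CD33 and CD53 were called lower and CD68 and LYZ higher, with a list median of -0.17. The shares over all genes tested were 1.15% lower and 3.64% higher, and CD33 and CD53 were chosen on this contrast.

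Metabolic, lysosomal and extracellular genes numbered 10, of which 8 were called. LITAF, a protein of late endosomes and lysosomes, fell from 15.3 and 13.7 CPM with the empty vector to 3.995 and 4.12 CPM with RUNX1::ERG, a log2 fold change of -1.88 ± 0.23 (SE, n = 2 per group). Of the 30 measured genes of a list on cholesterol and fatty acid synthesis, 1 was called lower and 1, FADS1, higher. The list median was -0.01. Among all genes tested, 1.15% were called lower and 3.64% higher.

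The lysosomal protease CTSH was at 80.7 and 70.3 CPM with the empty vector and at 37.3 and 38.9 CPM with RUNX1::ERG. RNASET2, an acid ribonuclease, was at 103 and 116 CPM and then at 56.4 and 54.4 CPM. NAT8L, which makes N-acetylaspartate, was at 21.4 and 19.4 CPM and then at 8.65 and 7.99 CPM. These 3 enzymes kept between 39.1% and 51.6% of the mean control level in every RUNX1::ERG library. GYG2, a glycogenin that primes glycogen, LARGE2, a glycosyltransferase of dystroglycan, and the metalloproteinase MMP17 were also called, whereas the cytochrome P450 gene CYP2S1 and the hyaluronan-binding ITIH5 were not.

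Red cell and globin locus genes were 3, all called. PKLR, the pyruvate kinase of red cells and liver, was at 231 and 221 CPM with the empty vector and at 127 and 116 CPM with RUNX1::ERG. CA1, the abundant carbonic anhydrase of mature red cells, was at 8.95 and 9.00 CPM and then at 2.99 and 3.19 CPM. OR51B5, an olfactory receptor gene whose transcripts run through the beta-globin locus, was at 21.4 and 19.5 CPM and then at 7.70 and 9.81 CPM.

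The exons of OR51B5 overlap those of HBG2 and HBE1 on the same strand, and these went the other way, HBG2 from a mean of 2526 to 3137 CPM and HBE1 from 6418 to 7980 CPM. Of the 42 measured erythroid genes of a list, 3 were called lower, among them CA1 and SLC25A37, and RHD, EPOR, AHSP, RHCE and DMTN higher, with a list median of 0.13. PKLR was not on that list. Among all genes tested, 1.15% were called lower and 3.64% higher, and CA1 was chosen on this contrast.

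Genes of mitochondrial ribosomal RNA, DNA repair and ubiquitin transfer formed a small group. TFB1M, a methyltransferase of mitochondrial ribosomal RNA, was at 26.6 and 23.2 CPM with the empty vector and at 12.4 and 11.5 CPM with RUNX1::ERG. ALKBH2, which repairs alkylated DNA, was at 32.6 and 32.2 CPM and then at 18.9 CPM in both libraries, and its call was lost without either RUNX1::ERG library (edgeR adjusted p = 0.152 without replicate 1 and 0.0626 without replicate 2). FBXW8, a subunit of a cullin ubiquitin ligase, was also called.

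Of the 6 long noncoding RNAs, 3 were called lower. UCA1, described in several carcinomas, was at 62.3 and 65.0 CPM with the empty vector and at 35.6 and 33.8 CPM with RUNX1::ERG. KRT10-AS1, antisense to KRT10, was at 35.8 and 28.3 CPM and then at 11.7 and 16.6 CPM. FLVCR1-DT was the third called. FIRRE, LINC00668 and MIR3945HG were not, and FIRRE had the smallest log2 fold change of the 6, at -0.85 ± 0.29 (SE, n = 2 per group).

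The 9 other coding genes have less settled roles, and 8 were called. FAM178B had the largest log2 decrease among the 10 lowered genes at 100 CPM or above. It was at 137 and 144 CPM with the empty vector and at 32.3 and 46.0 CPM with RUNX1::ERG, a log2 fold change of -1.88 ± 0.20 (SE, n = 2 per group). NT5DC4 was at 13.0 and 8.82 CPM and then at 4.27 and 2.79 CPM, OAF at 18.5 and 18.6 CPM and then at 9.34 and 8.47 CPM, and MAGEF1 at 47.9 and 43.5 CPM and then at 22.8 and 21.9 CPM. TMEM14A, CCDC74A, FAM241B and VCX were also called and SEC14L6 was not. VCX belongs to a family of near-identical copies, so its counts are uncertain. The gene numbers without a symbol were NCBI genes 100505644, 100507535 and 100505730, and the first 2 were called.

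Exons of 9 lowered genes overlapped an exon of another gene that was expressed in these cells, and reads in such stretches cannot be assigned without strand, whose setting is not given in the sources used here. The partners of PKLR, ITPR3, TNK1 and NT5DC4 on the opposite strand (HCN3, UQCC2, PLSCR3 and CKAP2L) had nearly the same mean in both groups, for example 21.0 CPM in each for HCN3 and 48.2 against 54.5 CPM for UQCC2. The partners of VIM and KRT10 did not. VIM-AS1 had a mean of 16.8 CPM with the empty vector and 10.05 CPM with RUNX1::ERG, and KRT10-AS1 one of 32.0 and 14.1 CPM. Whether the antisense counts of those 2 loci are separate transcripts was not tested.

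The order of the RUNX1::ERG libraries was not part of the rule, apart from its use of the higher RUNX1::ERG value. A gene lowered mainly in replicate 1 could therefore fail the rule, so the comparison below is not independent of the choice of genes. The library of replicate 1 had 2.57 times the ERG level of replicate 2, and the lowered genes were not lower in it. The log2 ratio of replicate 1 to replicate 2 had a median of 0.00 over the 73 genes and of -0.01 over the other genes at the CPM minimum. It was below 0 for 36 and above 0 for 37. The libraries lay within 20% of each other for 49 of the 73 (67.1%, against 66.9% of the other genes), and the level left, relative to the mean of the controls, had a median of 43.8% in replicate 1 and 43.3% in replicate 2. With 1 library at each ERG level, this is a description and not a dose test.

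TNS4 was left at 3.70% of its control mean in replicate 1 and 11.9% in replicate 2, and FAM178B at 23.0% and 32.7%. EPHB6 was at 30.4% in both, and ALKBH2, which was left the highest of all, was at 58.3% and 58.4%. ESPN went the other way, with 43.8% in replicate 1 and 29.8% in replicate 2.

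**Figure D4:**
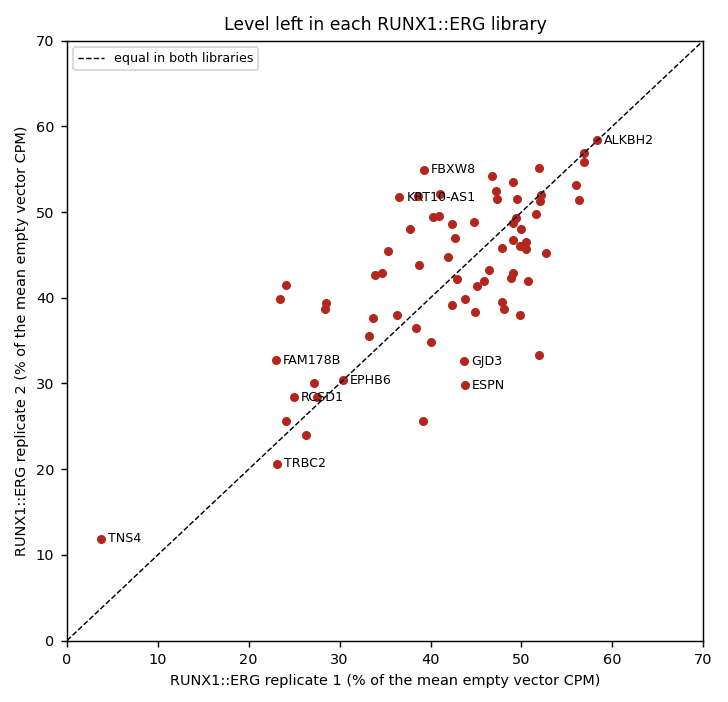
Level of each lowered gene in RUNX1::ERG replicate 1 (horizontal axis) and replicate 2 (vertical axis), as a percent of its mean empty vector CPM, 1 point a gene, with the dashed line marking equal values. The points lie on both sides of the line, 36 above it and 37 below. The libraries differed 2.57 times in ERG, and the rule used the higher RUNX1::ERG value of each gene.

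The controls were less even. Empty vector replicate 1 was above replicate 2 for 54 of the 73 genes (74.0%, against 56.2% of the other genes), with a median log2 ratio of 0.16 against 0.04. The rule set a limit on replicate 1 over replicate 2 and none in the other direction. The controls lay within 20% of each other for 46 of the 73 (63.0%, against 62.2% of the other genes).

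Several lowered genes were neighbours on the genome. Of the 70 that could be placed, 8 (11.4%) had their start site within 100 kb of that of another lowered gene, whereas 98 of the 10567 other placed genes at the CPM minimum (0.927%) had a lowered gene that near. Within 500 kb the shares were 11 (15.7%) and 437 (4.14%). Genes that overlap or share a chromosome segment are not independent points, and no test was made. The pairs within 100 kb were TRBC2 and EPHB6, AXL and CYP2S1, SFN and KDF1, and KRT10 with its antisense gene.

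On chromosome 17 (GRCh37), GJD3 at chr17:38516904-38520989, TNS4 at chr17:38632080-38657875, KRT10-AS1 at chr17:38975353-38992522 and KRT10 at chr17:38974369-38978866 had start sites within 458 kb of each other. IGFBP4, left out by name above, lies between GJD3 and TNS4 and was at 44.7 and 35.6 CPM with the empty vector and at 12.3 and 7.68 CPM with RUNX1::ERG. CCR7, on the other side of TNS4, was at 1.79 and 1.37 CPM and then at 0.814 and 0.391 CPM, and was not called. The decrease did not extend to all genes of the segment. TOP2A, between GJD3 and IGFBP4, had a log2 fold change of 0.05 ± 0.15 (SE, n = 2 per group), and SMARCE1, between CCR7 and KRT10-AS1, one of -0.09 ± 0.16.

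On chromosome 7, TRBC2 at chr7:142498725-142500432 and EPHB6 at chr7:142552823-142568847 (GRCh37) had start sites 54.1 kb apart. TRPV6, a calcium channel gene on the opposite strand whose start site is 30.7 kb from that of EPHB6, was below the CPM minimum. It was at 1.22 and 1.37 CPM with the empty vector and at 0.376 and 0.363 CPM with RUNX1::ERG, and was called lower in the edgeR quasi-likelihood test (log2 fold change -1.85 ± 0.45, SE, n = 2 per group, adjusted p = 0.0428). KEL, the Kell blood group gene with its start site 107 kb from that of EPHB6, had a log2 fold change of 0.48 ± 0.18 and was not called. The start sites of AXL and CYP2S1 are 26.0 kb apart on chromosome 19, and TGFB1, with its start site 135 kb from that of AXL, was called higher, at 271 and 230 CPM with the empty vector and 610 and 369 CPM with RUNX1::ERG. Chromosome 1 held 13 of the 70 placed genes (18.6%, against 10.3% of all genes at the CPM minimum).

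**Figure D5:**
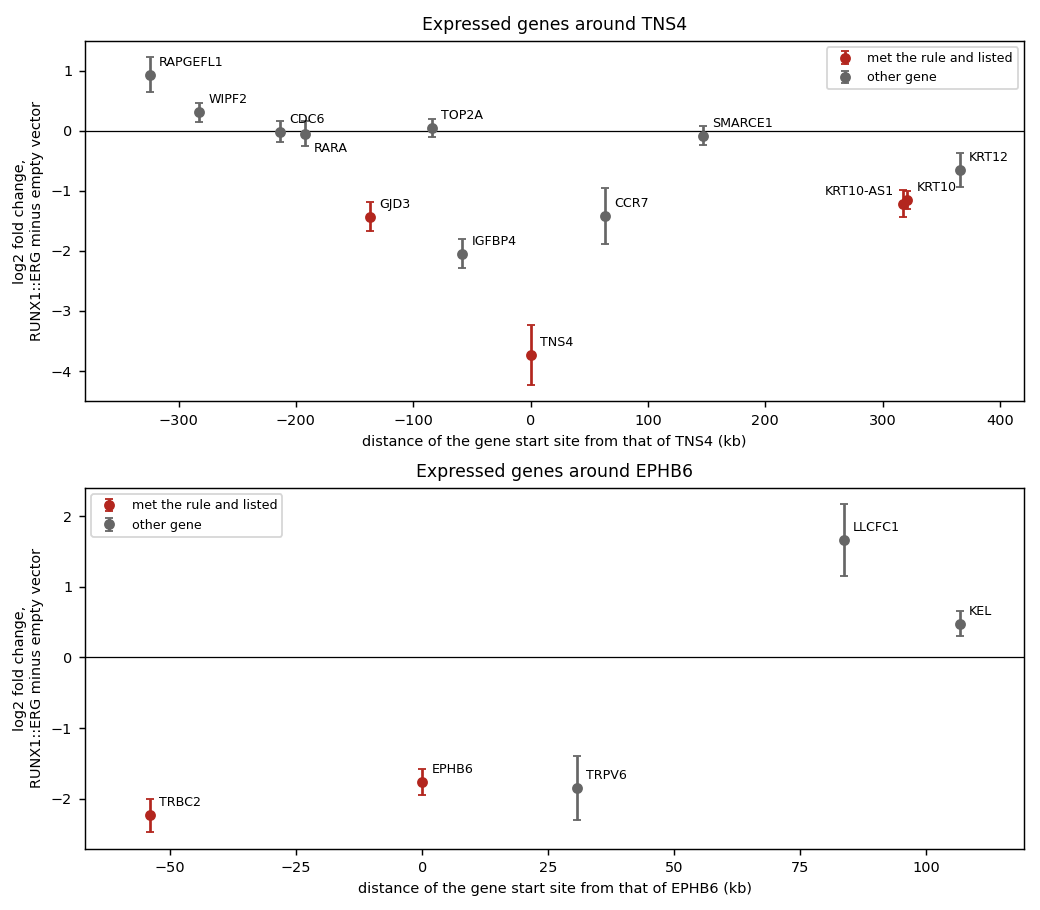
Log2 fold change (RUNX1::ERG minus empty vector, bars are SE, n = 2 per group) of genes with a mean of at least 1 CPM against the distance of their start site from that of TNS4 (top) or EPHB6 (bottom), in kb. Lowered genes (red) stand beside genes with values near 0, such as TOP2A at 0.05 and SMARCE1 at -0.09, and beside genes left out of the 73 that were also low, IGFBP4 at -2.05 and TRPV6 at -1.85.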

How the data were processed

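RNA from 4 K562 libraries was sequenced, and the authors deposited 1 table of raw read counts per library, listed by NCBI gene number. The submitters' processing notes name hg19, HISAT2 2.2.1 and featureCounts 2.0.1 without their roles, and the pairing and strand settings of the counting are not given in the sources used here, so overlapping genes and near-identical copies are uncertain. Counts were used as deposited, with all 4 libraries in the comparison. CPM was each count over its library total, times 1000000. Gene numbers were joined to RefSeq symbols (GRCh38.p14), which matched 92.2% of the 25702 genes and 70 of the 73 lowered genes, and to GENCODE v44 positions on GRCh37 by symbol and chromosome.

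The 2 groups were compared in R 4.3.3 with edgeR 4.0.16 (TMM scaling, its filter on low counts, quasi-likelihood test, Benjamini-Hochberg adjustment over 15394 genes, threshold 0.05). The SE given with a log2 fold change is the change over the root of its F value. The comparison had no replicate block, because the labels do not say what a replicate number shares. The procedure was tested on simulated data. Alternatives were other scalings, filters and folds, DESeq2 1.42.0, voom of limma 3.58.1, a replicate block, shorter motif cores and leaving out each library.

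The lowered genes, the 19 gene lists and the motifs were chosen with earlier results of these data known, and the 9 role groups after the lowered genes were seen. Genes were named where they were among the 15 largest ratios at a mean of at least 10 CPM with the empty vector, the 15 most abundant, on a list, or the 4 on each side of the fold limit, and otherwise for their role, chosen after their values were seen. Some genes that these choices cover are not reported here.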

Additional observations from a re-analysis of the deposited data

How the results depend on the processing

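With 2 libraries per group, weak transcripts limit precision, and 30 of the 73 lowered genes lay below 10 CPM. The median log2 fold change of the 73 stayed between -1.24 and -1.18 under the other scalings, filter and tests, and every gene kept a value below 0. That sign was set in advance by the rule, here and in the fits of the next sentence, so nothing is read from it. The 35 lowered genes named by rule were below 0 in 385 of 385 fits, and 8 of them lost their call when RUNX1::ERG replicate 1 was left out, namely SOHLH2, OR51B5, OAF, CD53, SPRY4, TERT, KRT10-AS1 and ALKBH2. TERT and ALKBH2 also lost it without RUNX1::ERG replicate 2.

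The total of genes called was 737 (177 lower, 560 higher), 810 with DESeq2 size factors, 618 with library totals (103 lower, 515 higher) and 688 with voom. It moved to 1500 without the filter (538 lower, 962 higher), to 1204 with DESeq2 (405 lower, 799 higher) and to 1733 with the replicate block (651 lower, 1082 higher). Under that block 73 of the 73 lowered genes were called and the median was -1.23. Same-numbered libraries deviated together with r = 0.27 over 15394 genes, but the labels give no shared source, so this is a hint only. Of the 73, between 52 (library totals) and 73 (replicate block) were called, with 71 without the filter and 70 with DESeq2. The cause of these shifts was not tested.

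Leaving out 1 library gave 286 to 1336 genes called, 29 to 70 of the 73 called, and a median log2 fold change between -1.27 and -1.16. The lowest counts, 286 and 29, came without RUNX1::ERG replicate 1, and the totals were 1227 without empty vector replicate 1 and 1336 without empty vector replicate 2.

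The number of genes that met the rule was 127 at a fold of 1.5 and 28 at 2, and between 54 and 90 under the other settings (CPM minimum of 1 or 5, TMM-scaled CPM, and other limits on the empty vector ratio). Fewer libraries make the rule easier to meet, and leaving out 1 library gave 114 to 382 genes, with 120 without empty vector replicate 1, 382 without replicate 2, 134 without RUNX1::ERG replicate 1 and 114 without replicate 2, which include all 73. The shorter motif cores were in 53.8% (Runt, TGTGG), 27.7% (Ets, GGAAGT) and 26.2% (GATA, GATAA) of the windows, against 45.9%, 27.4% and 14.4% of windows of other expressed genes and 51.4%, 22.8% and 22.7% of all windows.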

Other observations

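Several lists set for this work held none of the 73 lowered genes, and their counts come from the edgeR quasi-likelihood test at an adjusted p under 0.05. Over all 15394 genes tested, 1.15% were called lower and 3.64% higher. Among serine, glycine and one-carbon enzymes, PSAT1, PHGDH and MTHFD1L were called lower of 14 measured. Among amino acid transporters, SLC6A9, SLC7A5, SLC43A1, SLC7A1 and SLC1A5 were called lower of 12 measured. Among ATF4 stress genes, INHBE, STC2, WARS1 and CBS were called lower of 20, with a list median of -1.23 on the log2 scale. In edgeR's test 17 of the 20 were lower at an unadjusted p under 0.05, and DESeq2 called 3 lower. STC2 was at 61.3 and 15.5 CPM with the empty vector and at 7.53 and 7.03 CPM with RUNX1::ERG. Its empty vector libraries differed too much from each other for the rule. Of 12 measured genes of the MYC network other than MYC, MYCL and TERT were called lower, and TERT is among the 73.

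Of 20 megakaryocytic genes listed, 13 were measured, and 9 of these were called higher. Among cyclins, CDKs and their inhibitors, CCND2 was called lower of 16 and 3 higher. Of 26 cytokine receptor and JAK-STAT genes, SOCS3 and IL2RG were called lower and 5 higher. Of 22 MAPK feedback genes, SPRY4 was called lower and DUSP5 and DUSP4 higher. Interferon-stimulated genes had 4 called higher of 19, and the insulin-like growth factor axis had IGFBP5 called higher of 13.

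In 5 lists edgeR's test called 0 genes. Of 48 ribosome biogenesis genes (list median -0.36), 16 were lower at an unadjusted p under 0.05 and DESeq2 called 2 lower. Of 42 DNA replication genes (-0.17), 5 were lower and 1 higher at that unadjusted p, and DESeq2 called 0. Of 26 genes of nucleotide and polyamine synthesis (-0.28), 7 were lower and DESeq2 called 3 lower. Of 23 mitochondrial import and heat shock genes (-0.24), 4 were lower and DESeq2 called 1 lower. Of 20 polycomb and DNA methylation genes (-0.01), 1 was lower and 1 higher, and DESeq2 called 0.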
